A study of Mus musculus with 22 samples.

Results

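Glycolysis splits glucose into pyruvate in the cytosol, and pyruvate is either oxidised in mitochondria or reduced to lactate. Glycogen is the branched polymer in which muscle stores glucose, and it is built by glycogen synthase and the branching enzyme and broken down by glycogen phosphorylase. The embryonic heart is known to draw much of its ATP from glycolysis and to turn towards fatty acid oxidation after birth. Most steps can be run by several isoenzymes that are named for muscle, brain or liver.

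The 38 genes described here encode the enzymes of glycolysis from hexokinase to lactate dehydrogenase, the glucose and lactate transporters, the enzymes that set fructose-2,6-bisphosphate, the glycerol-3-phosphate shuttle and the enzymes of glycogen metabolism. They were chosen by name, and all 38 were found among the 54356 annotated genes with a deposited transcript. Bulk RNA sequencing was made of C57BL/6 mouse hearts at embryonic day E13.5, as whole hearts, isolated left ventricles (LV) and isolated right ventricles (RV). The tested mice were conditional knockouts (cKO) of Prdm16, a DNA-binding zinc finger protein that the series title calls enriched in compact myocardium, the dense outer layer of the ventricular wall. They were set against littermate controls, with 3 cKO and 3 control whole hearts, 4 cKO and 4 control LV, and 4 cKO and 4 control RV. The control libraries are titled WT and carry "Mock" as their genetic manipulation, and the Cre driver and the alleles of the controls are not given in the sources used here.

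Between 38590751 and 62004017 reads were assigned in each whole heart library and between 14508722 and 22830716 in each ventricle library. Prdm16 itself was at 19.0 to 22.3 CPM (counts scaled to library size) in heart cKO libraries and 37.4 to 45.3 in heart controls, at 21.6 to 23.4 in LV cKO and 45.4 to 56.2 in LV controls, and at 22.2 to 25.8 in RV cKO and 37.5 to 44.3 in RV controls. All 11 cardiomyocyte markers were detected in every group. The markers of other cell types were present too, so each value is that of a mixed tissue, in which fewer cells of a type and less RNA per cell cannot be told apart. The library RV control 2 stood apart from the other RV controls, with the fibroblast and valve gene Postn at 266 TPM against 42.0 to 47.6 TPM, and results that rest on it are also given without it.

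Levels between genes were compared in TPM, which account for transcript length. Gapdh, which oxidises glyceraldehyde-3-phosphate, stood highest in every group, at 3573 ± 575 TPM in LV cKO and 4027 ± 157 TPM in LV control hearts (SD, n = 4 each). Ldha, the lactate dehydrogenase subunit known for making lactate, came next at 1336 ± 107 TPM in LV cKO and 1447 ± 18.9 TPM in LV controls. Pkm (pyruvate kinase) and Aldoa (the muscle aldolase) followed, at 1164 ± 113 and 1016 ± 112 TPM in LV cKO and at 1217 ± 36.5 and 1270 ± 26.1 TPM in LV controls. Pkm was above Aldoa in all 4 LV cKO libraries and below it in all 4 LV controls. Gpd1, the cytosolic enzyme of the glycerol-3-phosphate shuttle, was lowest at 0.725 ± 0.164 TPM in LV cKO and 0.73 ± 0.153 TPM in LV controls.

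The 38 genes together made up 1.05 to 1.31% of all TPM in LV cKO libraries, against 1.37 to 1.41% in LV controls. In RV they made up 1.45 to 1.59% in cKO libraries, against 1.42 to 1.72% in controls, and in whole hearts 1.13 to 1.14% in cKO libraries, against 1.29 to 1.34% in controls. The cKO and control ranges were apart in LV and in whole hearts and overlapped in RV. The lowest sum, 10546 TPM in LV cKO 3, came from the library with the highest sum of erythroid markers, 93021 TPM. The part of erythroid RNA in these sums was not tested.

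Most members that changed were lower in the cKO. In LV, 21 of the 38 genes fell and 2 rose in the edgeR quasi-likelihood test with Benjamini-Hochberg adjustment over all genes (adjusted p below 0.05), where 25.6% of all genes tested changed, 13.4% lower and 12.3% higher. In whole hearts 13 of the 38 fell, where 4.03% of all genes changed, 2.07% lower and 1.96% higher. In RV 7 fell and 1 rose, where 10.3% of all genes changed, 4.19% lower and 6.12% higher. The median log2 fold change of the 38 genes was -0.20 in LV, -0.17 in whole hearts and -0.11 in RV, where that of all genes tested was 0.00, 0.01 and -0.01. Single changes were small, with the 21 genes that fell in LV lying between a log2 fold change of -0.56 for Gys1 and -0.17 for Phka1.

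**Figure D1:**
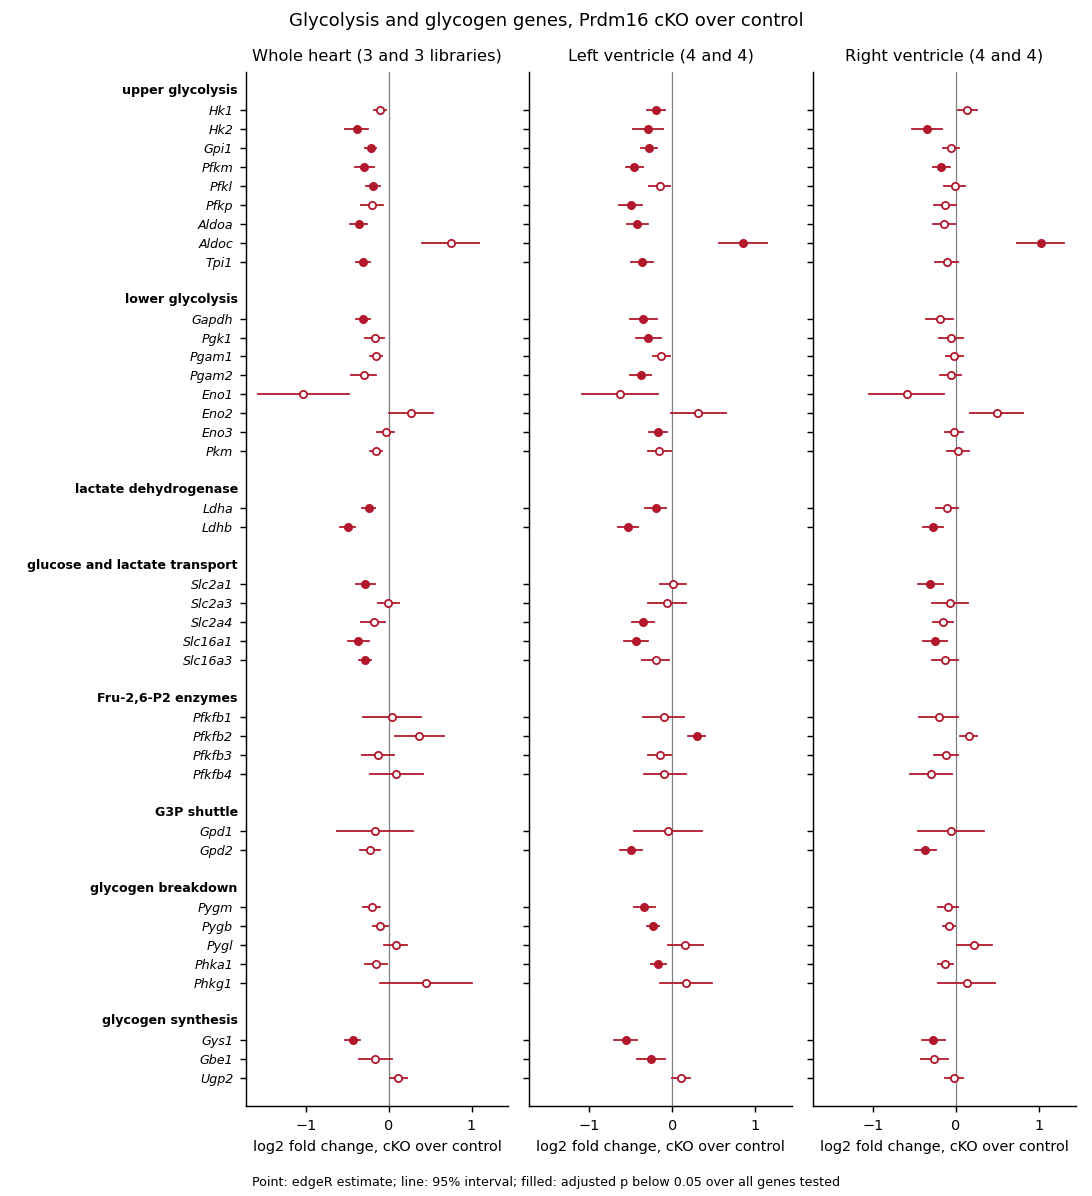
Log2 fold changes of the 38 genes, cKO over control, in whole hearts, left ventricles and right ventricles, grouped by role. Points are edgeR estimates, lines reach 1.96 SE to each side (nominal 95% intervals) and filled points passed an adjusted p of 0.05. Most points lie left of 0, with 21 filled points below 0 in LV, 13 in whole hearts and 7 in RV, and Aldoc lies far to the right in each panel.

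Gys1, Hk2, Ldhb, Pfkm and Slc16a1 fell in all 3 tissues, 5 of the 13 that fell in whole hearts, 5 of the 21 in LV and 5 of the 7 in RV. The labels do not say whether an LV and an RV came from the same heart. All cKO libraries were below all controls for 24 of the 38 members in whole hearts, where the same held for 12.9% of all genes tested, for 22 in LV (15% of all genes) and for 3 in RV (5.14%). All were above all controls for 3 members in whole hearts (13.8% of all genes), 2 in LV (14.1%) and 1 in RV (7.61%). How firm the calls were differed between the tissues. Of the calls in LV, 19 of 23 held when any 1 ventricle library was left out, with Hk2, Gbe1, Eno3 and Ldha the exceptions, against 4 of 8 in RV (Aldoc, Gpd2, Slc2a1 and Ldhb) and 2 of 13 in whole hearts (Gys1 and Ldhb). Without RV control 2, 18 members fell and 1 rose in RV with a median of -0.18, where 7.12% of all genes fell and 7.41% rose, and 26 fell and 2 rose in LV, where 15.2% of all genes fell and 14% rose. Without heart control 1, 16 fell and 1 rose in whole hearts, where 3.25% of all genes fell and 3.28% rose. Without heart cKO 2 only 2 fell, where 0.413% of all genes fell and 0.525% rose.

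The median of the cardiomyocyte markers moved in the same direction as that of the 38 genes, least in RV. Their median log2 fold change was -0.14 in LV, with 7 of 11 lower, and -0.17 in whole hearts, with 3 of 11 lower. In RV it was -0.08, with 0 of 11 called. Positive log2 fold changes were seen for 2 of the 11 in LV, 1 in whole hearts and 3 in RV. Their summed level was 19385 to 20453 TPM in LV cKO and 20415 to 22002 TPM in LV controls. In RV it was not lower, at 24251 to 26825 TPM in cKO and 23038 to 25540 TPM in controls. In the same LV comparison 7 of 10 endothelial and endocardial markers, 4 of 7 epicardial markers and 3 of 6 macrophage markers were higher, and the part of these shifts in the results below was not tested. Their summed levels were 775 to 858 TPM in LV cKO against 623 to 671 TPM in LV controls for the endothelial, 207 to 234 against 158 to 175 TPM for the epicardial and 57.6 to 68.8 against 42.0 to 49.3 TPM for the macrophage markers. Erythroid markers had positive log2 fold changes in LV and RV for all 11, with a median of 0.73 in LV (1 of 11 called) and 1.0 in RV (5 of 11 called). They summed to 37274 to 93021 TPM in LV cKO against 27571 to 52081 TPM in LV controls, and to 32124 to 61356 TPM in RV cKO against 13831 to 32916 TPM in RV controls. In RV 2 of 10 endothelial and 1 of 7 epicardial markers were also higher, and smooth muscle markers were split, with 1 of 6 higher and 2 lower.

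With each library scaled to its cardiomyocyte markers, the median of all genes stood at 0.16 in LV, 0.17 in whole hearts and 0.03 in RV, and that of the 38 genes at -0.04, -0.01 and -0.07. On that scale 12 members fell and 5 rose in LV, where 5.38% of all genes fell and 33.2% rose. In whole hearts 2 fell and 2 rose, where 0.637% of all genes fell and 7.52% rose, and in RV 5 fell and 3 rose, where 2.55% of all genes fell and 6.69% rose. The genes that still fell in LV were Gys1, Ldhb, Gpd2, Pfkp, Pfkm, Slc16a1, Aldoa, Pgam2, Tpi1, Slc2a4, Pygm and Gpi1. Gys1 and Ldhb also still fell in whole hearts and in RV.

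The first stage of glycolysis spends ATP to turn glucose into triose phosphates. Of its 9 genes, 7 fell and 1 rose in LV, 6 fell in whole hearts, and 2 fell and 1 rose in RV. Hexokinases trap glucose in the cell as glucose-6-phosphate. Hk2, the insulin-responsive hexokinase of muscle, had 106, 97.1, 94.7 and 95.7 scaled CPM (counts per library scaled by edgeR's trimmed mean factors) in LV cKO libraries, against 119, 120, 119 and 123 in LV controls. All 4 cKO libraries were below all 4 controls, with a log2 fold change of -0.29 (SE 0.093, adjusted p = 0.0296). Hk2 also fell in RV, by 0.35 on the log2 scale (SE 0.092, adjusted p = 0.0216), where RV cKO libraries at 142, 101, 114 and 125 scaled CPM overlapped RV controls at 161, 125, 159 and 169.

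Hk1, the ubiquitous hexokinase, is the member whose response differed between the ventricles. It had 408, 403, 399 and 411 scaled CPM in LV cKO libraries, against 456, 478, 463 and 460 in LV controls. In RV it had 557, 546, 522 and 531 scaled CPM in cKO libraries, against 512, 415, 507 and 523 in controls. All LV cKO libraries were below the LV controls, while in RV the groups overlapped and RV control 2 was by far the lowest. The log2 fold change was -0.20 in LV (SE 0.055, adjusted p = 0.0137) and 0.14 in RV (SE 0.054, adjusted p = 0.129).

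Phosphofructokinase commits sugar to glycolysis, and its muscle subunit Pfkm had the smallest p of the 38 genes in LV. Pfkm had 151, 131, 135 and 135 scaled CPM in LV cKO libraries, against 188, 188, 187 and 196 in LV controls (log2 fold change -0.46, SE 0.053, adjusted p = 8.55e-06). The cKO libraries lay well below all 4 controls. In RV it had 175, 180, 169 and 179 scaled CPM in cKO libraries and 202, 175, 209 and 207 in controls, a change of -0.17 (SE 0.053, adjusted p = 0.0453) that was lost when 14 of the 16 ventricle libraries were left out in turn. Pfkp, the platelet subunit, fell in LV by 0.50 on the log2 scale, with 282, 245, 237 and 239 scaled CPM in cKO libraries against 343, 356, 354 and 367 in controls (SE 0.068, adjusted p = 3.87e-05). Pfkl, the liver subunit, had a log2 fold change of -0.15 in LV and -0.01 in RV (adjusted p = 0.0966 and 0.946), and one of -0.19 in whole hearts (adjusted p = 0.0464) that was lost whichever of the 6 heart libraries was left out.

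Aldolase, which cleaves fructose-1,6-bisphosphate, showed opposite changes of its isoenzymes. Aldoa, the muscle form, had 1220, 1096, 1017 and 1107 scaled CPM in LV cKO libraries, against 1454, 1469, 1487 and 1544 in LV controls (log2 fold change -0.42, SE 0.067, adjusted p = 0.000178). It had 1041, 1046 and 1086 scaled CPM in heart cKO libraries, against 1450, 1343 and 1287 in heart controls (-0.36, SE 0.05, adjusted p = 0.00902). In RV the change of -0.15 (SE 0.067, adjusted p = 0.205) did not pass.

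Aldoc, the form known from brain, is a minor aldolase in these hearts and was the member with the largest rise. It had 20.0, 21.8, 17.8 and 20.6 scaled CPM in LV cKO libraries, against 10.4, 9.31, 11.5 and 13.2 in LV controls (log2 fold change 0.85, SE 0.148, adjusted p = 0.000394). It had 25.3, 24.4, 27.1 and 30.0 scaled CPM in RV cKO libraries, against 12.4, 8.83, 15.7 and 15.7 in RV controls (1.02, SE 0.143, adjusted p = 0.000154). Every cKO library was above every control in both ventricles. In whole hearts the values were 12.9, 16.4 and 16.7 scaled CPM in cKO libraries and 7.02, 11.0 and 9.31 in controls, again without overlap, but the change of 0.75 (SE 0.175) had an adjusted p of 0.061.

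Tpi1, which interconverts the triose phosphates, had 727, 772 and 767 scaled CPM in heart cKO libraries, against 969, 922 and 917 in heart controls (log2 fold change -0.31, SE 0.042, adjusted p = 0.00868). Gpi1, which interconverts glucose-6-phosphate and fructose-6-phosphate, had 711, 729 and 741 scaled CPM in heart cKO libraries, against 840, 850 and 844 in heart controls (-0.22, SE 0.035, adjusted p = 0.0166). For both genes every heart cKO library was below every heart control. Tpi1 and Gpi1 also fell in LV, by 0.36 and 0.28 on the log2 scale, and had changes of -0.11 and -0.05 in RV that did not pass.

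**Figure D2:**
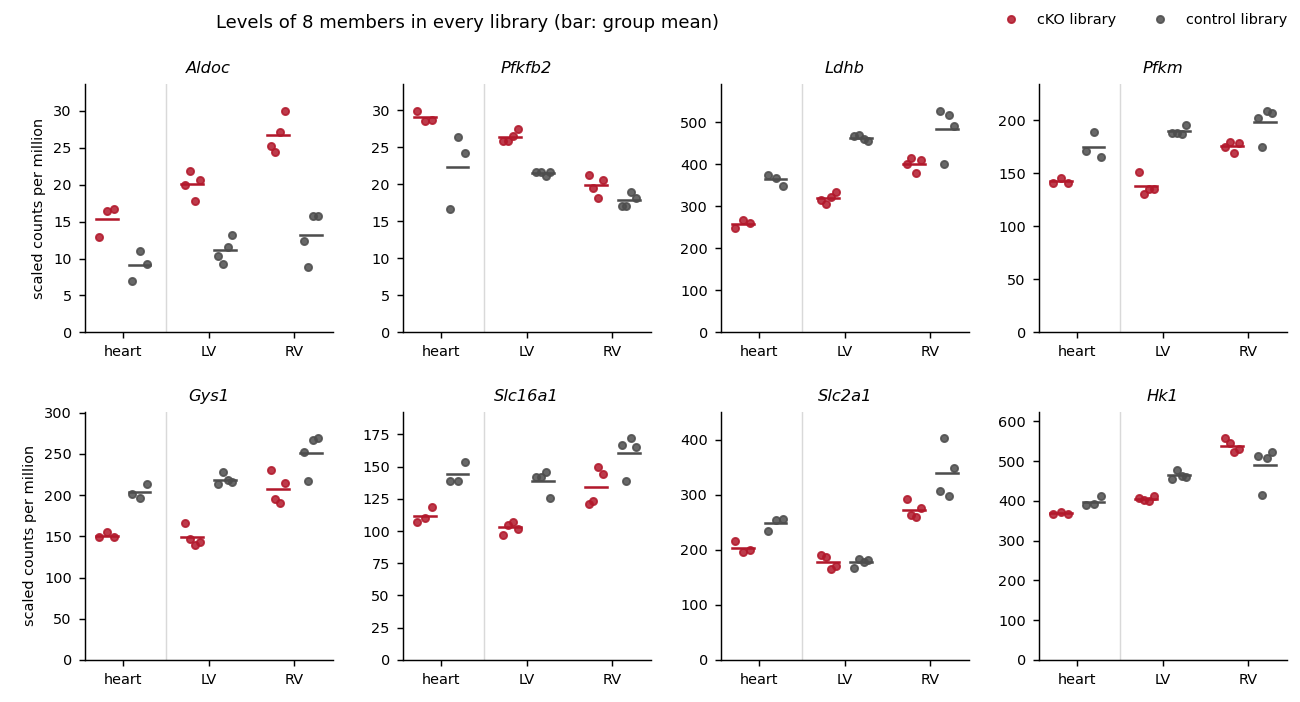
Scaled CPM of 8 members in every library, with cKO libraries in red left of control libraries in grey and a bar at each group mean. Whole hearts were scaled apart from the ventricles. The cKO points of Aldoc lie above the controls in each tissue, those of Ldhb, Pfkm, Gys1 and Slc16a1 lie below the controls in heart and LV, those of Slc2a1 below them in heart and RV, and those of Hk1 below them in LV.

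The second stage of glycolysis makes ATP and pyruvate. Of its 8 genes, 4 fell in LV (Gapdh, Pgk1, Pgam2 and Eno3) and 1 fell in whole hearts (Gapdh). In RV their log2 fold changes lay between -0.59 for Eno1 and 0.49 for Eno2, with adjusted p of 0.0736 or more. Gapdh had 2998, 2961, 2634 and 3464 scaled CPM in LV cKO libraries, against 3831, 4038, 3537 and 3931 in LV controls, with no overlap (log2 fold change -0.35, SE 0.082, adjusted p = 0.00478). In whole hearts it had 2948, 2949 and 2960 scaled CPM in cKO libraries, against 3857, 3598 and 3525 in controls (-0.31, SE 0.041, adjusted p = 0.00757). Gapdh has 88 near-identical copies in the annotation, to which 0.651 to 21.7% of its reads were assigned. With these added the LV change was -0.33 (adjusted p = 0.00058).

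Pgam2, the muscle phosphoglycerate mutase, fell in LV while the broadly used Pgam1 did not pass there. Pgam2 had 180, 176, 176 and 180 scaled CPM in LV cKO libraries, against 244, 227, 221 and 236 in LV controls (log2 fold change -0.38, SE 0.064, adjusted p = 0.000301). Pgam1 had 589, 568, 537 and 550 scaled CPM in LV cKO libraries and 629, 627, 602 and 607 in LV controls (-0.14, SE 0.051, adjusted p = 0.0635). Both sets of libraries were apart, and the change of Pgam2 was the larger. Pgk1, which makes the first ATP of this stage, fell in LV by 0.29 on the log2 scale (SE 0.075, adjusted p = 0.00893). In whole hearts, where its near-identical copies took 16.6 to 26.8% of the reads, Pgk1 had a change of -0.16 (SE 0.058, adjusted p = 0.203), and with the copies added one of -0.25 (SE 0.04, adjusted p = 0.0165).

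Enolase makes phosphoenolpyruvate. Eno1, the form of non-muscle and embryonic cells, could not be read from its own transcripts alone, because Eno1b and other near-identical copies took 33.9 to 73.9% of the reads. The share assigned to the copies was low in heart controls 1 and 2, LV controls 2 and 3 and RV controls 2 and 3, and high in all other libraries, cKO libraries among them. Eno1 alone had a log2 fold change of -1.03 in whole hearts, -0.63 in LV and -0.59 in RV, with adjusted p of 0.0981, 0.0567 and 0.128. With the copies added, it was -0.24 in whole hearts (SE 0.052, adjusted p = 0.0479), -0.20 in LV (SE 0.04, adjusted p = 0.00106) and -0.04 in RV (SE 0.039, adjusted p = 0.585). Adding copies was chosen after seeing the data, and it took the number of members called to 15 in whole hearts, 24 in LV and 8 in RV.

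**Figure D3:**
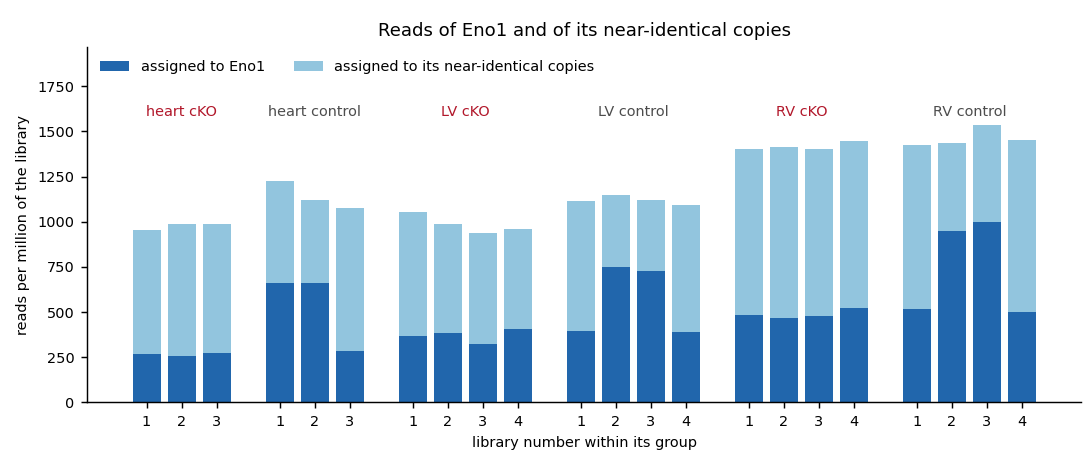
Reads assigned to Eno1 (dark) and to its near-identical copies (light), scaled to the reads of each library, with each cKO group left of its controls. Bar heights are similar within a group, while the dark part is tall in heart controls 1 and 2, LV controls 2 and 3 and RV controls 2 and 3 and short in all others.

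Eno3, the muscle enolase, had 174, 167, 158 and 162 scaled CPM in LV cKO libraries, against 183, 189, 184 and 190 in LV controls (log2 fold change -0.17, SE 0.056, adjusted p = 0.0321). On log2(TPM + 1) the sign of this change turned. Eno2, the neuronal enolase, was low, at 7.09 to 9.16 scaled CPM in LV cKO libraries and 5.94 to 7.49 in LV controls, and did not pass in any tissue.

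Pkm makes pyruvate and is spliced to carry either exon 9 (M1, the adult muscle form) or exon 10 (M2, the form of embryonic and growing cells). Pkm had a log2 fold change of -0.16 in LV (SE 0.068, adjusted p = 0.104), -0.15 in whole hearts and 0.03 in RV, none of which passed. The exons, from GENCODE M21 transcripts on GRCm38, lie at chr9:59675029-59675195 (exon 9) and chr9:59675568-59675734 (exon 10) on the plus strand. They are printed because they tell the M1 and M2 transcripts apart. Both are 167 bases long, capitals mark the 64 bases that differ between them, and they are 61.7% identical:
Pkm exon 9 (M1): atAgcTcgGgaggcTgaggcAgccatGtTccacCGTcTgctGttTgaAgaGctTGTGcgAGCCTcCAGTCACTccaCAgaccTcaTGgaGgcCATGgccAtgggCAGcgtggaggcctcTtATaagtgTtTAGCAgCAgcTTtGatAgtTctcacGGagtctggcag
Pkm exon 10 (M2): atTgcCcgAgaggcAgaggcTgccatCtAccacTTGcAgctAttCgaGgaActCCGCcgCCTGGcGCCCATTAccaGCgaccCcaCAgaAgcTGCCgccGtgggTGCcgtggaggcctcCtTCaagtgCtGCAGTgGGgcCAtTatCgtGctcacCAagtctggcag

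The M1 transcript held 55.7, 53.7, 56.6 and 49.5% of the M1 and M2 TPM in LV cKO libraries, against 55.9, 57.2, 57.1 and 55.9% in LV controls. The means were 53.9 ± 3.15% and 56.5 ± 0.695% (exact permutation test, two-sided p = 0.114, adjusted over the 5 comparisons p = 0.238), and LV cKO 4 was the lowest. In RV the share averaged 58.8 ± 1.0% in cKO and 58.2 ± 1.66% in controls (exact p = 0.6), and in whole hearts 56.1 ± 2.32% in cKO and 58.3 ± 0.742% in controls (exact p = 0.2, where 3 against 3 libraries cannot go below 0.1). Between the ventricles of the cKO it averaged 53.9% in LV and 58.8% in RV, without overlap (exact p = 0.0286, adjusted p = 0.143). Over all libraries M1 held 49.5 to 60.5% of the M1 and M2 TPM, and 44.0 to 53.9% of their estimated reads. How far the split of reads rests on sequence outside the printed exons was not tested. The M1 and M2 transcripts held 89.0 to 95.6% of the Pkm reads.

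Lactate dehydrogenase is a tetramer of Ldha and Ldhb subunits; Ldha is known for making lactate and Ldhb, the heart form, for using it. Both fell in LV and in whole hearts, Ldhb more. Ldhb had 314, 306, 322 and 334 scaled CPM in LV cKO libraries, against 466, 469, 460 and 456 in LV controls (log2 fold change -0.54, SE 0.064, adjusted p = 1.17e-05). It had 248, 268 and 259 scaled CPM in heart cKO libraries, against 374, 368 and 349 in heart controls (-0.50, SE 0.048, adjusted p = 0.00251). In both tissues every cKO library lay below every control. Its values in RV were 401, 414, 378 and 409 scaled CPM in cKO libraries, against 527, 400, 518 and 492 in controls (-0.27, SE 0.064, adjusted p = 0.0102), and RV control 2 was the only control within the cKO range.

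Ldha had 1307, 1216, 1156 and 1144 scaled CPM in LV cKO libraries, against 1388, 1413, 1363 and 1378 in LV controls (log2 fold change -0.20, SE 0.067, adjusted p = 0.0351). In whole hearts it had 1112, 1131 and 1130 scaled CPM in cKO libraries, against 1386, 1307 and 1283 in controls (-0.24, SE 0.04, adjusted p = 0.02). The groups were apart in both tissues, by less than for Ldhb. In RV the change was -0.11 (SE 0.066, adjusted p = 0.372).

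Ldha is a textbook target of hypoxia-inducible factors, which bind DNA around ACGTG. That motif, read on both strands, was found in at least 1 listed promoter of 20 of the 35 members in the RefSeq table of GRCm38.p6 (57.1%), of 21.8% of all 27025 genes in it and of 28.3% of the genes tested here. It was in 19.6% of all 32851 promoters, each reaching from 250 bases before to 50 after a start. A gene with more listed promoters has more chances to hold a motif, and these percentages of genes do not allow for that. Ldha has 2 listed promoters and Ldhb 1. Among the members that fell in LV 11 of 20 held it, and among the other members 9 of 15. The E-box CACGTG, which contains ACGTG, was found for 5 of 35 members (14.3%), 8.09% of all genes and 11.3% of tested genes. The GC box GGGCGG was found for 25 of 35 members (71.4%), 38.2% of all genes and 66.1% of tested genes, and the TATA box TATAAA for 3 of 35 members (8.57%), 15.7% of all genes and 9.42% of tested genes. One promoter of each lactate dehydrogenase gene is printed, at chr7:46845554-46845853 on the plus strand (Ldha) and chr6:142507908-142508207 on the minus strand (Ldhb). Both genes fell in LV and in whole hearts, Ldhb more, only Ldhb fell in RV, and the printed promoters differ in the motif. Capitals mark ACGTG and its reverse complement CACGT, with 5 matches counted over both strands (CACGTG counts on each) for Ldha and 0 for Ldhb:
Ldha promoter: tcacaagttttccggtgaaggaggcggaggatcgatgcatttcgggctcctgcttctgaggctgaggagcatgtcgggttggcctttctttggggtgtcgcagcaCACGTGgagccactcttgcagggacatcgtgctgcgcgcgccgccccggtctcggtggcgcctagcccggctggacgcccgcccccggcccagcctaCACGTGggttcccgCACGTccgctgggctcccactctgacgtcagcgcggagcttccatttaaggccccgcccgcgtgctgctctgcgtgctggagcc
Ldhb promoter: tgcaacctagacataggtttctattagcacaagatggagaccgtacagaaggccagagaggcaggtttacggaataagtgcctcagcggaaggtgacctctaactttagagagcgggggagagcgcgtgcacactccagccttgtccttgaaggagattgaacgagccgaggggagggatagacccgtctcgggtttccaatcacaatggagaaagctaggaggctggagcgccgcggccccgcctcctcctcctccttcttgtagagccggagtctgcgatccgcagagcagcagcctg

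Transporters bring glucose in and carry lactate across the membrane. Of the 5 genes, 2 fell in LV (Slc2a4 and Slc16a1), 3 in whole hearts (Slc2a1, Slc16a1 and Slc16a3) and 2 in RV (Slc2a1 and Slc16a1). Slc16a1, the monocarboxylate transporter MCT1, had 97.3, 105, 107 and 102 scaled CPM in LV cKO libraries, against 142, 142, 146 and 126 in LV controls (log2 fold change -0.43, SE 0.075, adjusted p = 0.000384). In RV it had 121, 123, 150 and 144 scaled CPM in cKO libraries, against 167, 139, 172 and 165 in controls (-0.26, SE 0.074, adjusted p = 0.0355). The groups were apart in LV and overlapped in RV at RV control 2. Slc16a3, the lactate exporter MCT4, had 121, 121 and 121 scaled CPM in heart cKO libraries, against 149, 146 and 148 in heart controls (-0.28, SE 0.041, adjusted p = 0.01).

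Slc2a1, the basal glucose transporter GLUT1, fell in RV and in whole hearts and was level in LV. It had 293, 264, 260 and 277 scaled CPM in RV cKO libraries, against 308, 403, 298 and 349 in RV controls (log2 fold change -0.31, SE 0.077, adjusted p = 0.0152). In LV it had 191, 187, 165 and 171 scaled CPM in cKO libraries and 167, 184, 178 and 182 in controls (0.01, SE 0.078, interval -0.15 to 0.16). The RV cKO libraries lay below all RV controls, of which RV control 2 was the highest, and without it the RV change was -0.22 (adjusted p = 0.0231). The difference between the ventricles, 0.32 (SE 0.11), had an adjusted p of 0.186.

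Slc2a4, the insulin-responsive glucose transporter GLUT4, had 25.9, 23.3, 24.4 and 23.5 scaled CPM in LV cKO libraries, against 31.2, 31.5, 30.5 and 30.9 in LV controls (log2 fold change -0.35, SE 0.066, adjusted p = 0.000818). Slc2a3 (GLUT3) was at 29.7 to 37.1 scaled CPM in LV cKO libraries and 29.2 to 40.3 in LV controls, with changes between -0.07 and 0.00 in the 3 tissues.

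Fructose-2,6-bisphosphate activates phosphofructokinase and is made and removed by the Pfkfb enzymes. Pfkfb2, the form known from heart, rose in LV, to 25.8, 25.8, 26.5 and 27.4 scaled CPM in cKO libraries, against 21.7, 21.6, 21.1 and 21.6 in controls (log2 fold change 0.29, SE 0.052, adjusted p = 0.000431). The other 3 genes of this group, Pfkfb1, Pfkfb3 and Pfkfb4, did not pass in any tissue. In RV Pfkfb2 had 21.3, 19.5, 18.2 and 20.6 scaled CPM in cKO libraries and 17.0, 17.1, 19.0 and 18.2 in controls, with overlap (0.16, SE 0.053, adjusted p = 0.0738). In the glycerol-3-phosphate shuttle, which carries cytosolic electrons to mitochondria, the mitochondrial enzyme Gpd2 fell in both ventricles.

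Gpd2 had 24.4, 27.9, 24.8 and 22.7 scaled CPM in LV cKO libraries, against 36.4, 37.1, 35.4 and 32.7 in LV controls (log2 fold change -0.50, SE 0.066, adjusted p = 2.69e-05). It had 28.6, 27.7, 29.8 and 28.6 scaled CPM in RV cKO libraries, against 38.9, 33.3, 35.9 and 40.0 in RV controls (-0.37, SE 0.064, adjusted p = 0.00119). No cKO library reached a control in either ventricle. In whole hearts the change was -0.23 (SE 0.063, adjusted p = 0.0992).

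In glycogen synthesis Gys1, the muscle glycogen synthase, fell in every tissue. It had 166, 147, 140 and 143 scaled CPM in LV cKO libraries, against 214, 228, 218 and 216 in LV controls (log2 fold change -0.56, SE 0.072, adjusted p = 2.34e-05). In whole hearts it had 149, 155 and 149 scaled CPM in cKO libraries, against 202, 196 and 214 in controls (-0.43, SE 0.049, adjusted p = 0.00414). LV and heart groups were far apart. Its values in RV were 230, 195, 191 and 215 scaled CPM in cKO libraries, against 252, 217, 267 and 269 in controls (-0.27, SE 0.071, adjusted p = 0.0203), with RV cKO 1 above RV control 2. Gbe1, the branching enzyme, fell in LV (-0.25, SE 0.082, adjusted p = 0.032) with overlapping libraries, and Ugp2, which makes UDP-glucose, did not pass in any tissue.

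In glycogen breakdown 3 of 5 genes fell in LV, while adjusted p were 0.0868 or more in whole hearts and 0.103 or more in RV. Pygb, the brain phosphorylase, had 338, 337, 332 and 327 scaled CPM in LV cKO libraries, against 382, 408, 393 and 386 in LV controls (log2 fold change -0.23, SE 0.038, adjusted p = 0.000192). Pygm, the muscle phosphorylase, fell by 0.34 on the log2 scale in LV (SE 0.064, adjusted p = 0.000899) and had a change of -0.09 in RV. Phka1, a regulatory subunit of the muscle phosphorylase kinase, fell by 0.17 (SE 0.048, adjusted p = 0.0151). Pygl, the liver phosphorylase, and Phkg1, the catalytic subunit of the muscle kinase, did not pass in any tissue.

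Isoenzyme shares were computed from TPM within 11 families, since both levels and the direction of change differed between isoenzymes. In LV, 6 of the families had cKO shares apart from control shares. Aldoc made up 1.47 ± 0.0872% of aldolase TPM in LV cKO and 0.658 ± 0.102% in LV controls, and Pfkfb2 40.6 ± 0.769% of Pfkfb TPM in LV cKO and 35.1 ± 1.58% in LV controls. Ldhb made up 24.5 ± 2.61% of lactate dehydrogenase TPM in LV cKO and 29.9 ± 0.62% in LV controls, and Pgam2 43.8 ± 1.46% and 48.1 ± 0.997% of mutase TPM. Slc2a4 made up 13.7 ± 0.983% of glucose transporter TPM in LV cKO and 17.6 ± 0.778% in LV controls, and Pfkm 19.5 ± 0.421% and 21.1 ± 0.409% of phosphofructokinase TPM. Each of these had the smallest p that 4 against 4 libraries allow (exact permutation test, two-sided p = 0.0286), which adjusted over the 11 families was 0.0524.

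In RV the shares of Aldoc (1.4 ± 0.221% in cKO, 0.658 ± 0.0798% in controls) and Pfkfb2 (34.5 ± 1.7% in cKO, 29.9 ± 1.1% in controls) were apart in the same direction as in LV. The Slc2a4 share went the other way, at 13.4 to 14.1% in RV cKO and 8.29 to 13.2% in RV controls. RV control 2 was the lowest at 8.29%, and the other RV controls, at 13.2, 12.4 and 11.1%, were also below the RV cKO range. Slc2a4 itself did not rise in RV (log2 fold change -0.16, edgeR adjusted p = 0.144), where Slc2a1 of the same family fell by 0.31. Each of the 3 shares had an exact p of 0.0286 and an adjusted p of 0.105. In whole hearts Aldoc (1.15 ± 0.135% in cKO, 0.604 ± 0.038% in controls), Ldhb (25.3 ± 0.922% in cKO, 28.9 ± 1.74% in controls) and Pfkfb2 (41.1 ± 0.692% in cKO, 34.3 ± 5.84% in controls) were apart, with an exact p of 0.1, the smallest that 3 against 3 allow.

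**Figure D4:**
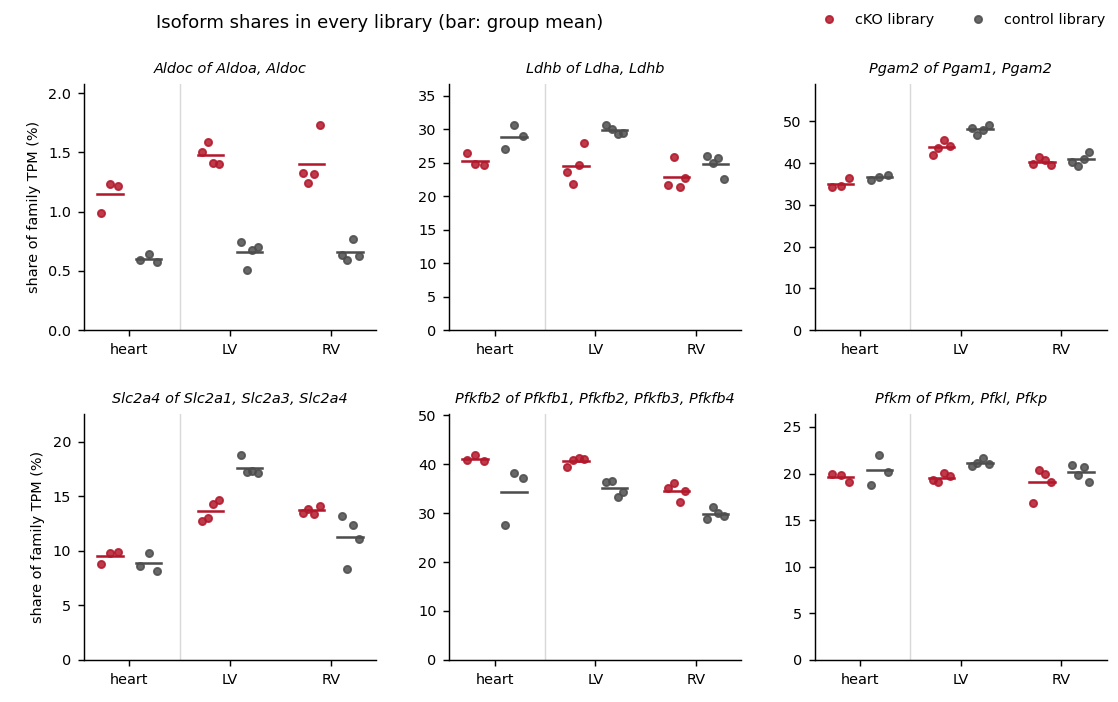
Share of an isoenzyme in the TPM of its family, in percent, in every library, with cKO libraries in red left of control libraries in grey and a bar at each group mean. The Aldoc share lies between 0.992 and 1.73% in cKO libraries and between 0.51 and 0.774% in controls, and LV cKO libraries lie below LV controls for Ldhb, Pgam2, Slc2a4 and Pfkm and above them for Pfkfb2.

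Whether the response differed between the ventricles was tested in the model of all 16 ventricle libraries. The cKO effect was lower in LV than in RV for 1 member, Hk1 (difference of log2 fold changes -0.33, SE 0.077, adjusted p = 0.0404), where 1.43% of all genes differed, 0.973% with a lower effect in LV and 0.462% with a higher one. The median difference over the 38 genes was -0.14, and 28 of them had a negative difference. For the other 37 genes the difference was tested and did not pass, although more members were called in LV than in RV. The Hk1 call was lost when 12 of the 16 libraries were left out in turn. Without RV control 2 the difference was -0.26 for Hk1 (adjusted p = 0.0031), and Pgam2 (-0.24, adjusted p = 0.0171) and Pfkm (-0.23, adjusted p = 0.05) passed as well.

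Left and right ventricles were then compared within each genotype. In the cKO, 27 of the 38 genes were lower in LV than in RV and 2 were higher, where 32.8% of all genes differed, 18.3% lower and 14.5% higher. In controls, 14 were lower and 2 higher, where 21% of all genes differed, 12% lower and 9.02% higher. The median log2 fold change, LV over RV, was -0.37 in the cKO and -0.19 in controls. In the cKO, all 9 upper glycolysis genes, 7 of 8 lower glycolysis genes, both lactate dehydrogenases and all 5 transporters were lower in LV. In controls it was 5 of 9, 3 of 8, 1 of 2 and 4 of 5. Cardiomyocyte markers went along, with a median of -0.35 in the cKO (9 of 11 lower) and -0.18 in controls (6 of 11 lower), and summed to 19385 to 20453 TPM in LV cKO against 24251 to 26825 TPM in RV cKO and to 20415 to 22002 TPM in LV controls against 23038 to 25540 TPM in RV controls. Markers of several other cell types were higher in LV in the cKO, for 5 of 6 macrophage, 5 of 9 fibroblast, 5 of 10 endothelial and 4 of 7 epicardial markers. In controls this held for 2 of 6 macrophage, 2 of 10 endothelial and 1 of 7 epicardial markers. Smooth muscle markers did not go along, with 1 of 6 higher and 2 lower in LV in the cKO, and 0 higher and 2 lower in controls. All 11 erythroid markers had positive log2 fold changes in both genotypes, with a median of 0.49 in the cKO (0 of 11 called) and 0.82 in controls (1 of 11 called). The part of these shifts in the differences between the ventricles was not tested.

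Scaled to these markers, 6 members were lower and 9 higher in LV in the cKO, where 2.89% of all genes were lower and 65.5% higher and their median stood at 0.37. In controls 6 were lower and 12 higher, where 2.29% of all genes were lower and 45.9% higher and their median stood at 0.23. The medians of the 38 genes were then -0.02 and 0.04. Without RV control 2, 28 members were lower and 2 higher in LV in the cKO, where 19.4% of all genes were lower and 16.7% higher. In controls 26 were then lower and 2 higher, with a median of -0.27, where 14.8% of all genes were lower and 12.2% higher.

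Slc2a1 had the smallest p of the 38 genes between control ventricles, with 167, 184, 178 and 182 scaled CPM in LV and 308, 403, 298 and 349 in RV (log2 fold change -0.93, SE 0.078, adjusted p = 6.01e-07). In the cKO it had 191, 187, 165 and 171 scaled CPM in LV and 293, 264, 260 and 277 in RV (-0.62, SE 0.078, adjusted p = 1.89e-05). No LV library reached the lowest RV library in either genotype. Eno3 had 174, 167, 158 and 162 scaled CPM in LV and 254, 286, 275 and 277 in RV in the cKO (-0.72, SE 0.056, adjusted p = 1.33e-07), and 183, 189, 184 and 190 in LV and 287, 241, 300 and 279 in RV in controls (-0.57, SE 0.056, adjusted p = 3.64e-06).

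Phkg1 and Pfkfb2 were higher in LV in both genotypes. Phkg1 had 7.92, 7.38, 8.65 and 7.61 scaled CPM in LV and 4.85, 3.53, 3.0 and 4.34 in RV in the cKO (log2 fold change 0.998, SE 0.169, adjusted p = 0.000271), and 8.35, 6.19, 6.24 and 7.49 in LV and 4.38, 2.93, 4.35 and 2.76 in RV in controls (0.96, SE 0.17, adjusted p = 0.000806). Pfkfb2 was higher in LV by 0.41 in the cKO (SE 0.052, adjusted p = 2.01e-05) and by 0.27 in controls (SE 0.053, adjusted p = 0.00172). Both kept apart from RV in each genotype. Pgam1, Gpi1, Aldoa and Pfkp were lower in cKO LV than in cKO RV by 0.46, 0.47, 0.59 and 0.53 on the log2 scale (adjusted p between 2.65e-06 and 1.92e-05), and Pgam1, Slc16a3 and Ldha were lower in control LV than in control RV by 0.35, 0.45 and 0.37 (adjusted p between 0.000173 and 0.000933).

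**Figure D5:**
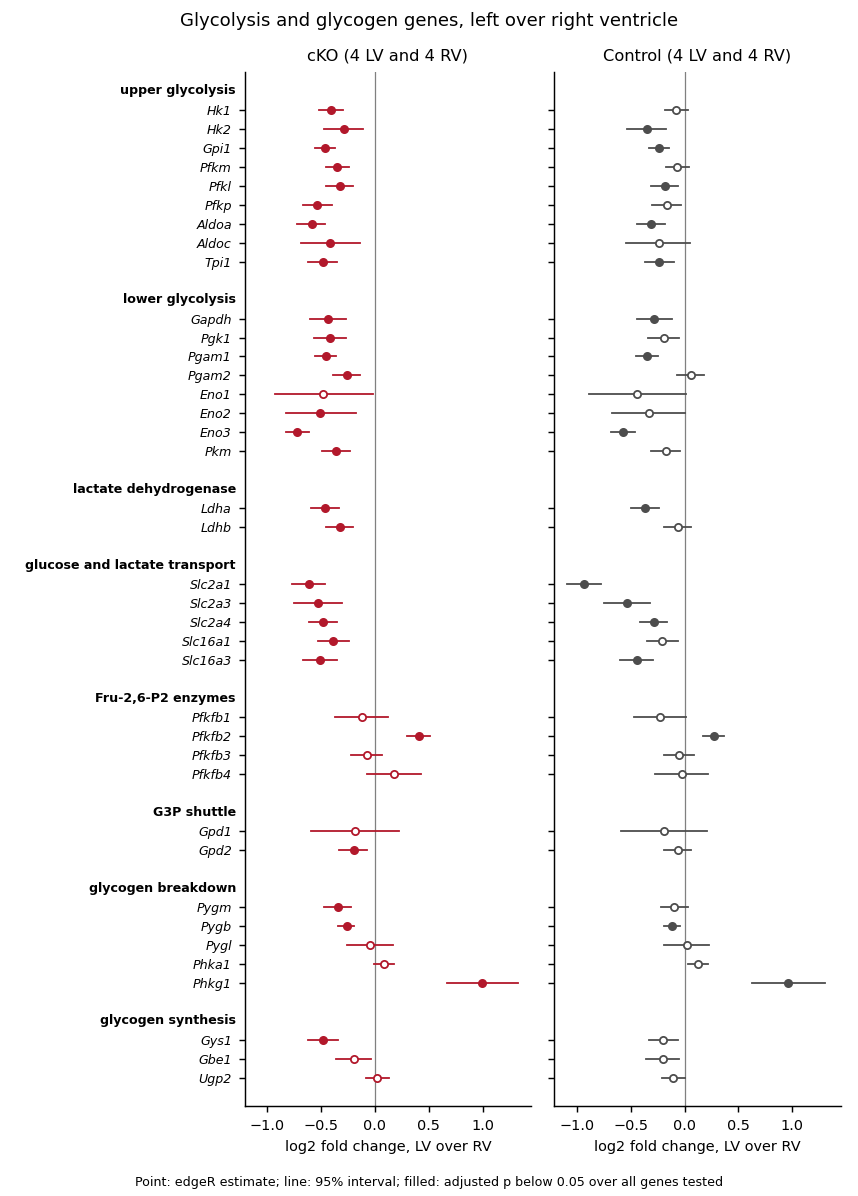
Log2 fold changes of the 38 genes, LV over RV, in the cKO (red) and in controls (grey). Points are edgeR estimates, lines reach 1.96 SE to each side (nominal 95% intervals) and filled points passed an adjusted p of 0.05. Most points lie left of 0, farther in the cKO (median -0.37) than in controls (median -0.19), Slc2a1 and Eno3 lie far left in both panels, and Phkg1 and Pfkfb2 lie right of 0 in both.

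Between the ventricles of control hearts the shares of 5 families were apart without passing the adjusted threshold. Pgam2 made up 48.1 ± 0.997% of mutase TPM in control LV and 40.9 ± 1.38% in control RV, Ldhb 29.9 ± 0.62% and 24.8 ± 1.54%, Slc2a4 17.6 ± 0.778% and 11.2 ± 2.15%, and Pfkfb2 35.1 ± 1.58% and 29.9 ± 1.1%. Eno3 went the other way, at 18.8 to 20.5% of enolase TPM in control LV and 20.7 to 23.7% in control RV, and overlapped once the near-identical copies of Eno1 were added. The libraries of each of these 5 did not overlap (exact permutation test, two-sided p = 0.0286, adjusted p = 0.0629). In the cKO, Pgam2 (43.8 ± 1.46% in LV, 40.4 ± 0.883% in RV) and Pfkfb2 (40.6 ± 0.769% in LV, 34.5 ± 1.7% in RV) were still apart, while Ldhb (24.5 ± 2.61% in LV, 22.9 ± 2.03% in RV) and Slc2a4 (13.7 ± 0.983% in LV, 13.7 ± 0.303% in RV) overlapped.

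Other genes of the same pathways moved in both directions. Of 64 listed genes, 52 were tested in the ventricles and 54 in whole hearts. In LV 14 rose and 12 fell, with a median of -0.02, where 12.3% of all genes rose and 13.4% fell. In RV 7 rose and 6 fell (median -0.03), where 6.12% of all genes rose and 4.19% fell. In whole hearts 4 rose and 3 fell (median 0.03), where 1.96% of all genes rose and 2.07% fell. Stbd1, a protein that binds glycogen and tethers it to membranes, fell most in LV, to 40.7, 36.4, 35.8 and 35.9 scaled CPM in cKO libraries, against 82.7, 73.5, 78.8 and 87.5 in controls (log2 fold change -1.12, SE 0.066, adjusted p = 5.4e-09). In RV it had 55.5, 60.0, 66.0 and 63.9 scaled CPM in cKO libraries, against 84.1, 79.0, 82.8 and 74.0 in controls (-0.38, SE 0.064, adjusted p = 0.000758), and the difference between the ventricles passed (-0.73, SE 0.091, adjusted p = 0.00083). Stbd1 also fell in whole hearts (-0.60, SE 0.064, adjusted p = 0.00345), so that it moved the same way as Gys1 in each tissue.

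Hkdc1, a hexokinase outside the classical set, rose from a low level. It had 7.4, 9.12, 8.48 and 8.16 scaled CPM in LV cKO libraries, against 0.889, 1.51, 0.904 and 1.22 in LV controls (log2 fold change 2.86, SE 0.225, adjusted p = 1.26e-07). Its values in RV were 1.78, 1.08, 0.883 and 1.1 scaled CPM in cKO libraries, against 0.222, 0.0992, 0.0467 and 0.166 in controls (3.17, SE 0.352, adjusted p = 1.49e-05). Every cKO library was above every control of its ventricle, and Hkdc1 stayed far below Hk1 and Hk2 in counts. In whole hearts the change was 3.1 (SE 0.769, adjusted p = 0.0736).

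Gaa, the acid glucosidase that clears glycogen in lysosomes, rose by 0.46 in LV (SE 0.049, adjusted p = 3.85e-06), by 0.43 in RV (SE 0.049, adjusted p = 2.31e-05) and by 0.27 in whole hearts (SE 0.04, adjusted p = 0.0126). Pgm5, a phosphoglucomutase relative found at cell adhesions, rose by 0.63 in LV, 0.82 in RV and 0.69 in whole hearts (adjusted p = 5.14e-07, 5.9e-08 and 0.003). Minpp1 (an inositol polyphosphate phosphatase) rose in LV by 0.39 (adjusted p = 9.92e-06), and Pcx, pyruvate carboxylase, rose in RV by 0.44 (adjusted p = 0.000621). In whole hearts Gyg, the glycogenin that primes new glycogen, fell by 0.26 on the log2 scale (SE 0.035, adjusted p = 0.00899), and Emb, a partner of monocarboxylate transporters, rose by 0.61 (SE 0.095, adjusted p = 0.0145). These 4 genes are named only where they were among the smallest p, and they were not particular to that tissue. Pcx averaged 30.2 scaled CPM in LV cKO libraries and 22.8 in LV controls. Emb averaged 19.0 in LV cKO and 11.2 in LV controls, and 22.6 in RV cKO and 15.9 in RV controls. Minpp1 averaged 69.1 in RV cKO and 59.1 in RV controls, and Gyg 922 in LV cKO and 1036 in LV controls.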

How the data were processed

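RNA of 22 libraries was measured by stranded mRNA sequencing (TRIzol, Illumina TruSeq, HiSeq), per the labels' protocols. The authors deposited Salmon 1.2.1 output, per the submitters' processing notes, which also name DESeq2 1.22.2 and the builds GRCm38.p6 and mm10. Each deposited file gives estimated counts of reads, which are not scaled between libraries, and TPM, which are scaled to transcript length and library, for 140658 transcripts. Identifiers of 140137 matched GENCODE M21 (GRCm38), and the 521 without a match, up to 0.204% of the reads in a library, were dropped. How the deposited transcript estimates split reads between near-identical transcripts limits single genes, Eno1 above all.

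Gene totals of estimated counts were rounded to whole numbers, and TPM were added up over the transcripts of a gene. A second gene ID with the symbol Aldoa, with 0.059% as many reads, was not used. Tests used edgeR 4.0.16 in R 4.3.3 (quasi-likelihood F test, TMM factors, filterByExpr, Benjamini-Hochberg adjustment, threshold 0.05). One fit took the 6 heart libraries (19160 genes) and another all 16 ventricle libraries with a mean for each of 4 groups (16448 genes), so that those share an estimate of the spread. Standard errors come from dividing the size of a log2 fold change by the root of its F statistic. Intervals reach 1.96 SE to each side and are somewhat too narrow. For Phka1 in whole hearts the interval was -0.29 to -0.02, while the edgeR F test gave an unadjusted p of 0.0564. Scaled CPM are CPM over TMM-scaled library sizes. Isoenzyme and Pkm transcript shares were compared by exact permutation tests over libraries. Genes were taken as near-identical where BLAST 2.17.0 aligned transcripts over at least 300 bases at 95% identity or more. Promoters come from RefSeq.

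The members and all gene lists were chosen with earlier results of these data known. All 38 members are accounted for. Named members are up to 8 called with the smallest p in each cKO comparison, up to 6 in each comparison of ventricles, Hk1 and the isoenzymes described, with values in every library for those the results turn on, and up to 5 called genes per cKO comparison come from the other pathway lists. Labels do not tie libraries to animals, so p-values measure the spread between libraries. Every pair of libraries in a group differed by more than sampling noise. Tests were checked on simulated counts. Alternatives covered scaling, filters, DESeq2 1.42.0, limma 3.58.1 (voom, and log2(TPM + 1)), length-scaled counts, the libraries fitted, a replicate block and leaving out each library.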

Additional observations from a re-analysis of the deposited data

Results flagged for a closer look

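In groups of 4 libraries, 152 sets of values of the 38 genes were checked for a library far from the others, and 12 were found, where chance alone gives about 1 in 20. Of these, 7 fell on RV control 2, which was the low library of the RV controls in each. It had 415 scaled CPM for Hk1 against 507 to 523 in the other RV controls, 944 for Gpi1 against 1110 to 1125, 956 for Tpi1 against 1202 to 1218 and 1066 for Pgk1 against 1387 to 1409. It had 183 for Pgam2 against 235 to 237, 1504 for Ldha against 1870 to 1900, and 389 for Pygb against 435 to 438. The same library had 266 TPM of Postn against 42.0 to 47.6 TPM and 23038 TPM of cardiomyocyte markers in sum against 24924 to 25540 TPM, and the part of these in its values was not tested.

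Gapdh was at 4387 scaled CPM in RV cKO 4 against 3966 to 3969 in the other RV cKO libraries, and Eno2 at 7.09 in LV cKO 2 against 8.84 to 9.16. Eno2 was at 7.76 in RV control 3 against 8.84 to 8.94, Pfkm at 196 in LV control 4 against 187 to 188, and Pfkfb2 at 21.1 in LV control 3 against 21.6 to 21.7.

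The cKO effect on Hk1 differed between the ventricles by a test of the difference itself, at -0.33 (more exactly -0.334, SE 0.077, edgeR adjusted p = 0.0404).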

How the results depend on the processing

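Counts are of the 38 genes called. In whole hearts (13) the count was 22 with DESeq2, 4 scaled to cardiomyocyte markers, 0 with limma on log2(TPM + 1), 1 with length-scaled counts and 3 with the replicate block. In LV (23) it was 13 on log2(TPM + 1), and with length-scaled counts 15 members fell and 1 rose. In RV (8) it was 2 on log2(TPM + 1), 3 with length-scaled counts and 3 with only the RV libraries fitted. For the difference between ventricles (1) it was 0 with RLE factors, on log2(TPM + 1) and with length-scaled counts, and 5 with DESeq2. For LV against RV it was 19 on log2(TPM + 1) and 15 scaled to cardiomyocyte markers in the cKO (29), and 6 on log2(TPM + 1) and 10 with length-scaled counts in controls (16). Leaving out 1 library gave 2 (without heart cKO 2) to 17 (without heart control 1) in whole hearts, 19 to 28 in LV, 4 (without RV cKO 2 or RV control 4) to 19 (without RV control 2) in RV, 0 to 3 for the difference, 26 to 30 in cKO ventricles and 12 to 28 in control ventricles. Same-numbered libraries correlated at -0.116 to 0.237 and were not taken as pairs. Between LV cKO and RV cKO (0.053 to 0.237), 4 of 4 libraries correlated best with their own number. This held for 3 of 4 between RV cKO and RV control, 2 of 4 between LV cKO and LV control, 1 of 4 between control ventricles and 0 of 3 in whole hearts. LV and RV libraries that come from 1 heart would not be independent, as the tests between ventricles take them to be. The replicate block gave 22 in LV, 8 in RV, 1 for the difference, 29 in the cKO and 16 in controls.

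Signs turned for Pfkl in whole hearts (0.14 on log2(TPM + 1), 0.081 with length-scaled counts) and Eno3 in LV (0.026 on log2(TPM + 1)). Scaled to cardiomyocyte markers they turned for LV over RV in controls (Pfkl 0.045, Pygb 0.111) and in the cKO (Hk2 0.062, Pfkl 0.028, Pgam2 0.091, Gpd2 0.153, Ldhb 0.025, Pygm 0.008, Pygb 0.088, Pfkm 0.004). The causes were not tested. Of 90 single calls, 90 held with DESeq2, with haemoglobin genes left out, at 1 CPM and with copies added. With length-scaled counts 53 held, 36 were weaker and 1 turned. On log2(TPM + 1) 38 held, 50 were weaker and 2 turned, and scaled to cardiomyocyte markers 38 held, 42 were weaker and 10 turned.

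Taken from estimated reads in place of TPM, differences of shares, in percentage points, were 0.756 for Aldoc and 12.7 for Eno3 in whole hearts, 1.04 for Aldoc, 4.81 for Eno3 and -2.45 for Slc2a4 in LV, 6.71 for Eno3 in RV, 5.26 for Pgam2 and 3.82 for Slc2a4 between control ventricles and -2.19 for Slc16a3 between cKO ventricles. With copies added the Eno3 difference in LV was 0.116. Depth limits Gpd1, Pfkfb4 and Phkg1 most.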
